A study of Homo sapiens with 10 samples.

Results

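CIRBP and RBM3 are the cold-inducible RNA-binding protein genes of human cells, and their RNA-DNA hybrid peaks are described here in U2OS osteosarcoma cells. They are 2 of 19974 protein-coding genes on chromosomes 1 to 22 and X. The pair was chosen with measured values in view: CIRBP was already known from these libraries to be covered less by peaks in cells with mutant TDP1, and RBM3 is its cold-inducible relative. All values below come from the same libraries as that choice, so they are a description and carry no test. Wild-type cells (WT) were compared with mutant lines carrying TDP1 H493R, the change that underlies SCAN1, a spinocerebellar ataxia with axonal neuropathy. TDP1 frees DNA ends from trapped topoisomerase 1. RNA-DNA hybrids of nuclei that had not been crosslinked were captured with the antibody S9.6 and sequenced (DRIP-seq). The 5 libraries are WT replicates 1 and 2, replicates 1 and 2 of the mutant line SCAN1#1, and replicate 2 of the mutant line SCAN1#2. The replicate number is the experiment, and the antibody lot differed between experiments, so lot and experiment cannot be told apart. The labels do not say whether a line is 1 clone or whether replicates were separate cultures, so every spread below is one between samples and may be technical.

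Both proteins are small and glycine-rich with an RNA-recognition motif. They accumulate when cells are mildly cooled, bind many messenger RNAs, and affect translation, splicing and polyadenylation. CIRBP is also induced by ultraviolet light and hypoxia and is drawn to sites of DNA damage, while RBM3 is known for protecting neurons and synapses in the cold. R-loops form when a nascent RNA pairs with its template behind the polymerase, often over GC-rich gene starts and at the ends of active genes.

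The sequence before each gene start is shown because the 5′ peak of each gene spans it or begins near it. Both genes run on the plus strand of GRCh38.p14, and the RefSeq sequences are the 250 bases before the annotated start, chr19:1269082-1269331 for CIRBP and chrX:48574234-48574483 for RBM3. Capitals mark GGGCGG (the GC box bound by SP1), CCAAT and CCGGAA (the core bound by ETS factors, searched for after the RBM3 sequence was read), each on either strand.

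CIRBP: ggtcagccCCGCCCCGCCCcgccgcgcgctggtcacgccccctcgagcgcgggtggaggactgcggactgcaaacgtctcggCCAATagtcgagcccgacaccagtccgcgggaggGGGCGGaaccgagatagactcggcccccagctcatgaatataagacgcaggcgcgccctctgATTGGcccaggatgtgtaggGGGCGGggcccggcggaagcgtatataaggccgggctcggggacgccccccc

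RBM3: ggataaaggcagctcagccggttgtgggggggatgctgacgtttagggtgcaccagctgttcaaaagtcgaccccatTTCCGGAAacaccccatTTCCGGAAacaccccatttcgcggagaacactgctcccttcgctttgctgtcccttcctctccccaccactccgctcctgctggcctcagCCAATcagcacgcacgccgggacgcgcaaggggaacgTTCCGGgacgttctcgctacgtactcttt

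Over the full promoter window of 300 bases, which adds the first 50 bases of the gene, CIRBP was richer in CpG than RBM3. CIRBP held 37 CpG and 70.3% G or C, with 85.0% of 15813 protein-coding promoters holding fewer CpG. RBM3 held 24 CpG and 59.3% G or C, against medians of 22 CpG and 62.7% over the promoters. The GC skew, (G - C)/(G + C) on the plus strand, was 0.0237 for CIRBP and -0.180 for RBM3, and 9.44% of promoters had a lower skew than RBM3. RBM3 thus had an excess of C over G on its coding strand, and CIRBP had nearly as much of one as of the other.

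The matches differed between the genes. GGGCGG occurred 4 times in CIRBP, 2 of them on the other strand and overlapping by 1 base, and 0 times in RBM3, where 58.5% of promoters hold it. CCAAT occurred 2 times in CIRBP and 1 time in RBM3 (36.3% of promoters). CCGGAA was counted 6 times in RBM3 and 0 times in CIRBP (22.8% of promoters), with 4 of the 6 forming 2 palindromes. A stretch of 27 bases that holds 1 palindrome occurs in 2 overlapping copies, which begin 180 and 163 bases before the start. The letters TCCCCGCC, described as a mild cold response element, and TATAAA and TGACGTCA were in neither window (11.4%, 9.64% and 2.59% of promoters). Only these exact letters were searched for, so close variants, such as tatataag in the CIRBP sequence, were not counted. A match is a run of letters and is not evidence of binding.

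Peaks covered the start of CIRBP in each library but the start of RBM3 in only some. The promoter window of CIRBP lay wholly under a peak in all 5 libraries (100%). That of RBM3 was covered over 62.3% (replicate 1) and 0% (replicate 2) in WT, over 100% and 46.3% in SCAN1#1 in the same order, and over 0% in SCAN1#2. For RBM3 the uncovered windows belonged to both genotypes, in experiment 2. The lncRNA gene CIRBP-AS1 (chr19:1267471-1270260) overlaps the first 929 bases of CIRBP, and peaks carry no strand, so its hybrids cannot be separated from those of CIRBP.

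CIRBP (gene ID 1153) spans chr19:1269332-1274880, 5549 bases, or 7549 with 1 kb added at both ends. In WT replicate 1 a single deposited peak of 8380 bases ran from -2.68 to 5.70 kb relative to the start. WT replicate 2 had 2 peaks, from -0.587 to 2.75 kb and from 3.23 to 6 kb. In the SCAN1 libraries CIRBP carried a block over the 5′ part and shorter, separate peaks further on.

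In the mutant line SCAN1#1, replicate 1 had 4 peaks, the main one from -0.562 to 2.48 kb, with others at 3.75 to 4.24 kb and 4.85 to 5.68 kb. Replicate 2 had 3 peaks, at -0.261 to 2.56, 3.82 to 4.43 and 4.69 to 5.92 kb. SCAN1#2 replicate 2 had 3 peaks as well, at -0.281 to 2.80, 3.64 to 4.4 and 4.96 to 5.76 kb. The same 3 places were occupied in both lines, with gaps between them that WT replicate 1 lacked. A stretch of 2747 bases (-0.261 to 2.48 kb) and one of 729 bases (4.96 to 5.68 kb) at the gene end were covered in all 5 libraries, as were 416 bases at 3.82 to 4.24 kb in the lists as deposited. Another 691 bases lay under a WT peak in each experiment but under none of either SCAN1 line, mainly 409 bases at 3.23 to 3.64 kb and 257 bases at 4.44 to 4.69 kb. The reverse pattern, a base under a peak in each of the 3 SCAN1 libraries but not in WT, was found for 0 of the 7549 bases.

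RBM3 (gene ID 5935) spans chrX:48574484-48581162, 6679 bases, or 8679 with the added 1 kb at both ends. It held 2 main blocks in 4 of the 5 libraries, a 5′ block and a mid-gene block. The 5′ block ran from -0.137 to 2.25 kb in WT replicate 1, 0.231 to 2.35 kb in WT replicate 2, -0.0890 to 3.05 kb in SCAN1#1 replicate 2 and 0.1 to 2.23 kb in SCAN1#2 replicate 2. Its summits fell within a narrow range, at 1.43 to 1.5 kb after the start. The mid-gene summits were as close, at 4.03 to 4.06 kb. In SCAN1#1 replicate 1 both blocks were called as one peak of 5912 bases from -0.255 to 5.66 kb, with its summit at 1.83 kb.

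In all 5 libraries, the RBM3 stretches at 0.231 to 2.23 kb (2002 bases) and 3.51 to 4.48 kb (971 bases) were covered. A weak upstream peak with its summit at -0.968 to -0.915 kb was present in 4 libraries, all but WT replicate 2, with a fold enrichment of 3.97 to 5.60. Near its end RBM3 held only weak peaks, with a fold enrichment of 3.88 to 6.45, and none in WT replicate 2 or SCAN1#2. In RBM3, 0 bases were covered in both WT libraries alone and 59 in all SCAN1 libraries alone.

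**Figure D1:**
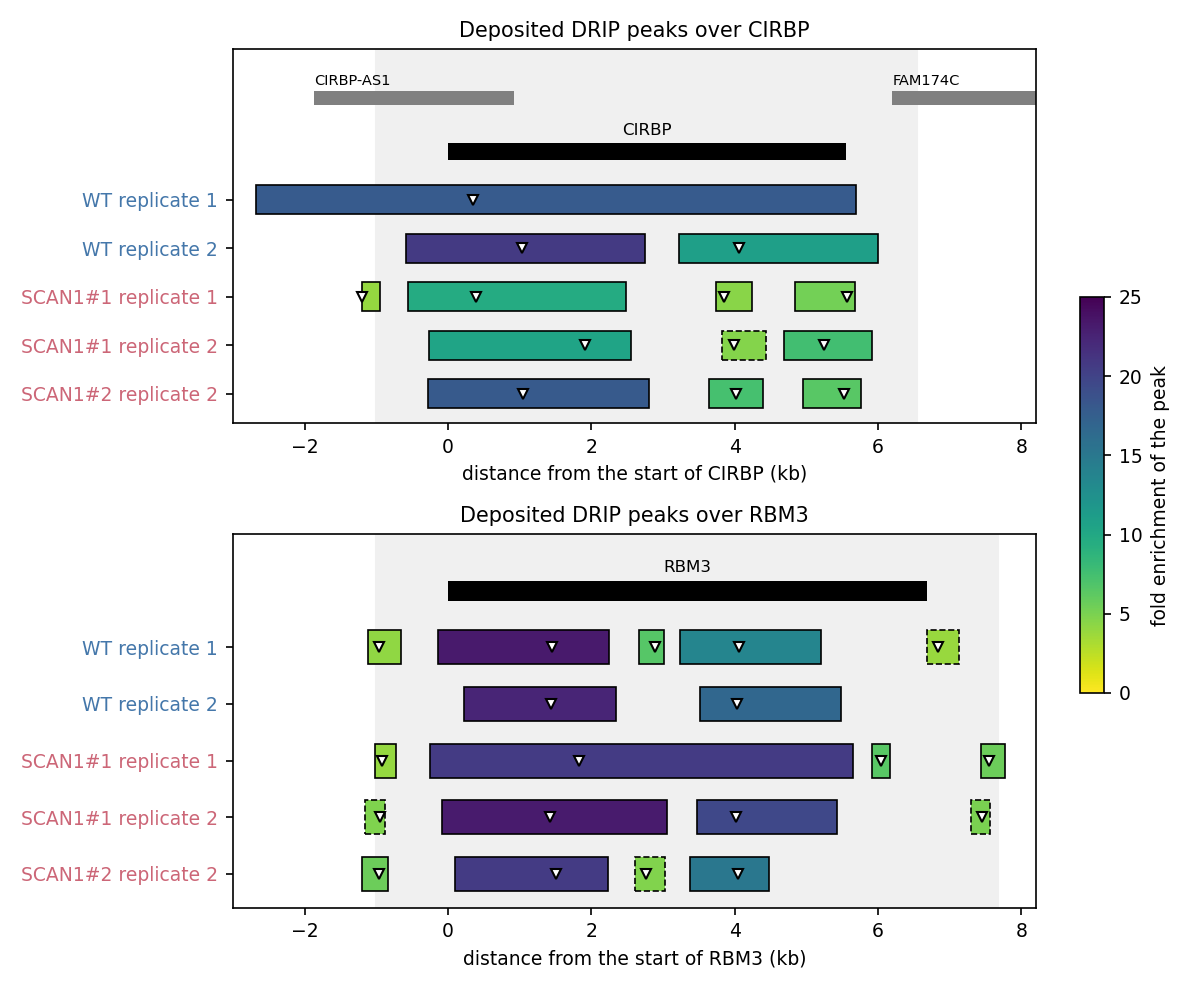
Deposited DRIP peaks over CIRBP (top) and RBM3 (bottom) in each library, as bars along the distance from the gene start in kb, coloured by fold enrichment; triangles are summits, dashed outlines mark peaks outside the 63456 strongest of a library, black bars are the genes, grey bars other genes of the CIRBP window, and shading is the gene with 1 kb at both ends. CIRBP is under 1 or 2 peaks in WT and 3 or 4 in SCAN1 libraries, while RBM3 shows the same 2 main blocks in 4 libraries and 1 joined peak in SCAN1#1 replicate 1.

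Peak lists differ in length, so cover was compared over the 63456 strongest peaks of each library by -log10 p, the number in the shortest list, and is given as the percent of the gene with 1 kb at both ends. WT replicates 1 and 2 had 88.8% and 80.8% of CIRBP under peaks, those of SCAN1#1 had 58.8% and 53.6%, and SCAN1#2 had 61.7%. All 3 SCAN1 values lay below both WT values. The mean of SCAN1 was 58.0% ± 4.09 (SD, n = 3) and that of WT 84.8% ± 5.62 (SD, n = 2), a difference of -26.8 points that exceeds either SD. Against WT of the same experiment, SCAN1#1 differed by -30.0 points in the first and -27.2 in the second, and SCAN1#2 by -19.1. Groups that do not overlap in this direction were found in 6.86% of the 8472 protein-coding genes with a mean cover of at least 2%, and nothing is read from it for CIRBP because the gene was chosen on this contrast. By size, 30 of those genes had a lower difference than CIRBP. In the lists as deposited the values were 88.8% and 80.8% against 58.8%, 61.7% and 61.7%, a difference of -24.0 points.

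RBM3 showed no such separation. WT replicates 1 and 2 had 58.1% and 47.2% of RBM3 under peaks, those of SCAN1#1 had 77.0% and 58.7%, and SCAN1#2 had 39.1%. SCAN1 held both the highest and the lowest library. The means were 58.2% ± 18.9 (SD, n = 3) and 52.7% ± 7.76 (SD, n = 2), and their difference of 5.60 points was smaller than either SD. Within experiments RBM3 was higher in SCAN1#1, by 18.8 and 11.5 points, and differed by -8.05 points in SCAN1#2. The sign of the pooled difference rested on SCAN1#1 replicate 1, without which it was -3.76 points. It was 11.1 points without WT replicate 1, 0.108 without WT replicate 2 and 15.2 without SCAN1#2 replicate 2. Groups that do not overlap with SCAN1 higher made up 9.48% of the 8472 genes, and RBM3 was not among them.

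**Figure D2:**
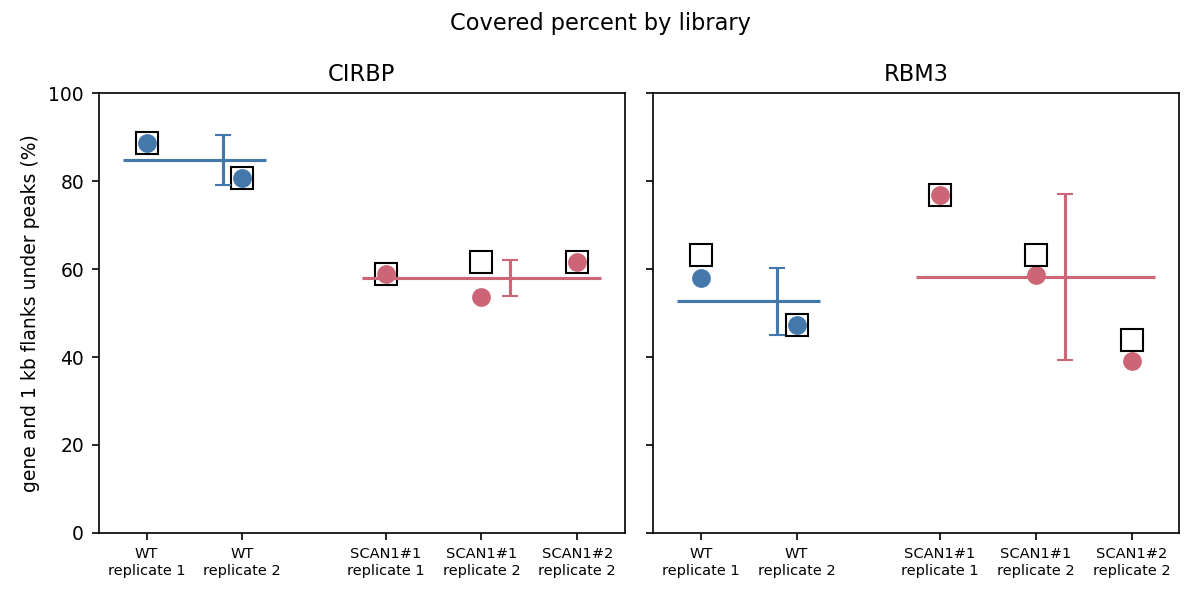
Percent of CIRBP (left) and RBM3 (right), with 1 kb at both ends, that lay under peaks in each library; filled circles use the 63456 strongest peaks and open squares the lists as deposited, and lines and bars give the group mean ± SD of the circles (WT, n = 2; SCAN1, n = 3). For CIRBP the SCAN1 circles lie at 53.6% to 61.7% and the WT circles at 80.8% and 88.8%, and for RBM3 the groups overlap.

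Between experiments the cover of the same line was lower in experiment 2 for both genes. For CIRBP it differed by -7.95 points in WT and -5.18 in SCAN1#1, and for RBM3 by -11.0 and -18.3. For CIRBP these steps were smaller than those between genotypes within an experiment, whereas for RBM3 they were of similar size. Each rests on 1 library per line and experiment. With peaks as deposited the step of CIRBP in SCAN1#1 turned to 2.97 points.

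Both genes were well covered for their size. The mean over the 5 libraries was 68.7% for CIRBP and 56.0% for RBM3, and 97.6% and 96.4% of protein-coding genes had less. Among the 2124 genes of 4 to 8 kb the median was 2.83%, and 92.1% and 87.8% of them had less than CIRBP and RBM3. Each gene had a peak in all 5 deposited lists, as did 53.6% of protein-coding genes.

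By part of the gene, the pooled difference of CIRBP and that of SCAN1#1 were largest in the interior, and that of SCAN1#2 at the end. The interior, from 1 kb after the start to 1 kb before the end, was covered over 100% and 86.4% in WT, 55.7% and 43.9% in SCAN1#1 and 72.3% in SCAN1#2, so the groups did not overlap there. Within 1 kb of the start the values were 100% and 79.4% in WT, 81.1% and 63.1% in SCAN1#1 and 64.1% in SCAN1#2. Within 1 kb of the end they were 57.6% and 72.4% in WT, 41.8% and 61.3% in SCAN1#1 and 40.4% in SCAN1#2. At both gene ends the groups overlapped, though each SCAN1 library was below WT of its own experiment. The difference of SCAN1 from WT was -35.9 points in the interior, -20.3 at the start and -17.1 at the end. In the lists as deposited SCAN1#1 replicate 2 had 61.3% in the interior. The pooled difference there was then -30.1 points, and the groups still did not overlap. For SCAN1#2 against WT replicate 2 it was -14.0 in the interior, -15.3 at the start and -32.0 at the end.

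For RBM3 the interior was covered over 76.1% and 71.0% in WT, 99.6% and 85.6% in SCAN1#1 and 49.9% in SCAN1#2. The lines lay on opposite sides of WT there. At the start RBM3 had 74.3% and 38.5% in WT, 76.5% and 54.5% in SCAN1#1 and 53.0% in SCAN1#2. At the end it had 24.6% in SCAN1#1 replicate 1 and 0% in the other 4 libraries. In the lists as deposited the end of RBM3 had 22.1% in WT replicate 1 and 13.8% in SCAN1#1 replicate 2 as well, so the pooled difference was 1.75 instead of 8.2 points. The end of CIRBP was covered over at least 40.4% in each library.

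**Figure D3:**
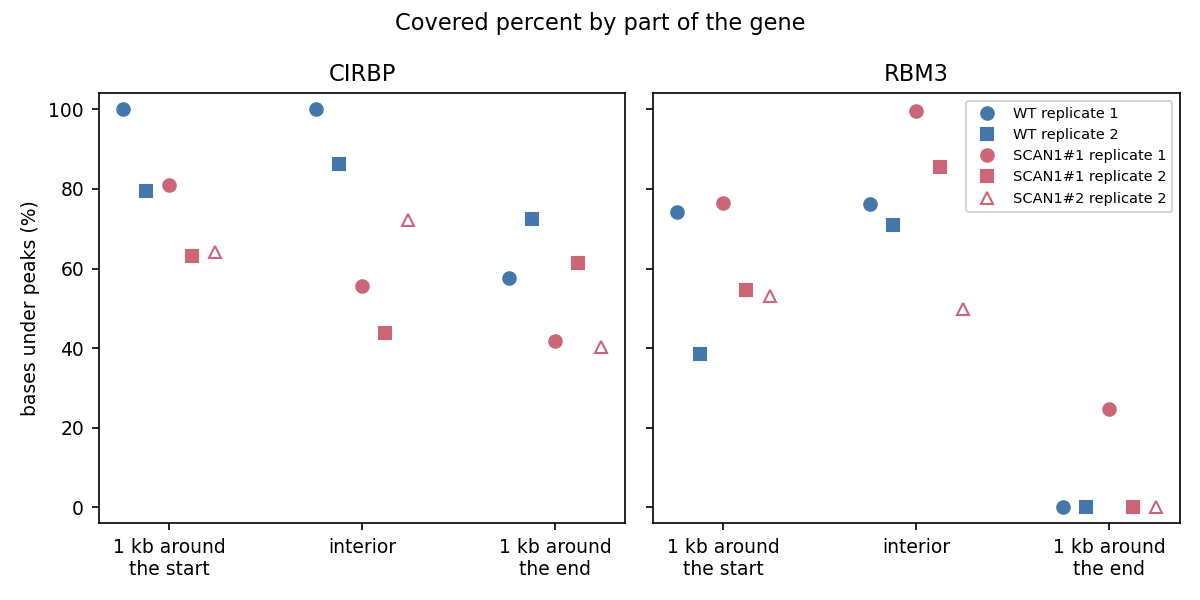
Percent of bases under the 63456 strongest peaks within 1 kb of the start, in the interior and within 1 kb of the end of CIRBP (left) and RBM3 (right), with 1 point per library (blue, WT; red, SCAN1; circles, experiment 1; squares and open triangle, experiment 2). In the CIRBP interior both WT points (86.4% and 100%) lie above the SCAN1 points (43.9% to 72.3%), and in RBM3 SCAN1#2 is lowest in the interior at 49.9%.

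Fold enrichment, the deposited ratio of a peak over the caller's background estimate, set the mutant lines apart at CIRBP. The highest peak over CIRBP reached 17.9 and 20.8 in replicates 1 and 2 of WT, 9.70 and 10.4 in those of SCAN1#1, and 18.0 in SCAN1#2. By this measure only SCAN1#1 was clearly below WT, and SCAN1#2 lay between the WT values. Divided by the median fold enrichment of its library, the peak was 3.04 in SCAN1#2, against 3.69 and 3.67 in WT. Weighted by covered bases, fold enrichment was 14.3 in SCAN1#2, against 17.9 and 16.4 in WT. On both of these measures SCAN1#2 was thus below both WT libraries and above SCAN1#1. For the highest peak on the log2 scale, the differences within experiments were -0.88 and -0.997 for SCAN1#1 and -0.21 for SCAN1#2. The pooled difference was -0.66, with SDs of 0.49 (SCAN1, n = 3) and 0.16 (WT, n = 2). The peak was stronger than 99.3% and 99.2% of the peaks of the WT libraries, 95.2% and 90.7% of those of SCAN1#1 and 98.2% of those of SCAN1#2. The difference between the SCAN1 lines was not tested.

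At RBM3 the highest peak was nearly the same in every library. It reached 23.3 and 22.4 in WT, 20.7 and 23.2 in SCAN1#1 and 20.7 in SCAN1#2. The pooled log2 difference was -0.09, with SDs of 0.10 (SCAN1, n = 3) and 0.04 (WT, n = 2), and the groups overlapped. The mid-gene peak of RBM3 reached 13.6 and 16.7 in WT, 19.6 in SCAN1#1 replicate 2 and 15.1 in SCAN1#2, and was part of the joined peak in SCAN1#1 replicate 1. The pair thus shared strong 5′ peaks, and only that of CIRBP was weaker in SCAN1#1.

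**Figure D4:**
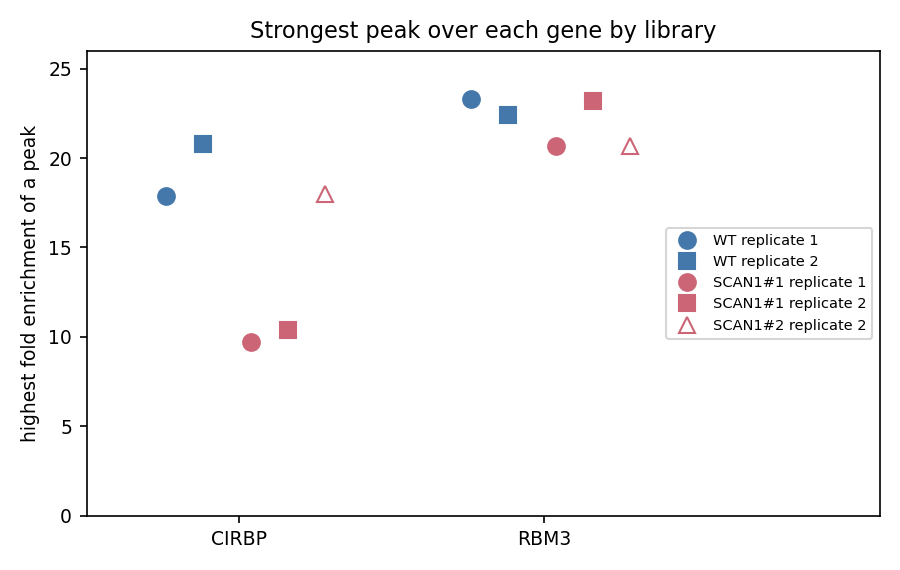
Highest fold enrichment of a deposited peak over CIRBP and RBM3 with 1 kb at both ends, 1 point per library (blue, WT; red, SCAN1; circles, experiment 1; squares and open triangle, experiment 2). At CIRBP the SCAN1#1 points (9.70 and 10.4) lie below the others (17.9 to 20.8), and at RBM3 all points lie between 20.7 and 23.3.

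The surroundings of CIRBP moved with it in SCAN1#1. In the 100 kb on either side, without CIRBP itself and its flanks, peaks lay over 11% and 4.74% of bases in replicates 1 and 2 of WT, 1.06% and 0.178% in those of SCAN1#1, and 5.89% in SCAN1#2. SCAN1#1 was the lowest line in both experiments, whereas SCAN1#2 was near WT replicate 2. In the lists as deposited the order of the latter turned, with 7.26% in SCAN1#2 and 7.89% in WT replicate 2. Deposited peaks there numbered 32 and 24 in WT, 5 and 8 in SCAN1#1 and 20 in SCAN1#2. Around RBM3 the same measure was 9.69% and 6.76% in WT, 10.8% and 9.51% in SCAN1#1 and 6.85% in SCAN1#2, with no low line.

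Low cover in SCAN1#1 extended from near the chromosome end to about 1.6 Mb, an edge set after the profile was seen. In the 100 kb bins that begin 1.2 and 1.1 Mb before CIRBP, neither WT library had cover. In the first 1.6 Mb of chromosome 19, without CIRBP, 10.2% and 4.57% of bases were covered in WT, 2.63% and 1.76% in SCAN1#1 and 4.21% in SCAN1#2. From 1.6 to 3.2 Mb the values were 8.74% and 5.50% in WT, 7.66% and 4.81% in SCAN1#1 and 4.40% in SCAN1#2. SCAN1#1 was therefore much lower than WT up to that edge and close to it beyond. By this average SCAN1#2 was close to WT replicate 2 on both sides. Its CIRBP cover was 19.1 points below that of WT replicate 2. Of the 36 other genes in the first 1.6 Mb with a mean cover of at least 2%, 19 were lower in SCAN1#2 than in WT replicate 2. The count was 4333 of 8470 genes over all chromosomes.

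Fold enrichment of other genes in the first 1.6 Mb was also lower in SCAN1#1. Of 101 other protein-coding genes there, 24 had a peak in all 5 deposited lists, and the median log2 difference of their highest peak was -0.50 and -0.44 for SCAN1#1 in experiments 1 and 2 and 0.15 for SCAN1#2. The same medians were -0.33, 0.10 and 0.18 over 28 genes from 1.6 to 3.2 Mb, and -0.03, 0.22 and 0.15 over 10713 genes of all chromosomes. Of the 24 genes, 20 were lower in SCAN1#1 of experiment 1, 17 in SCAN1#1 of experiment 2 and 11 in SCAN1#2. The counts were 21, 11 and 5 of the 28 genes further in, and 5677, 3114 and 3845 of the 10713. In experiment 1 the lower fold enrichment of SCAN1#1 thus reached past the edge. Of the 36 genes in the first 1.6 Mb that passed the cover filter, 13 had all SCAN1 libraries below both WT. The count was 1 of 31 in the next 1.6 Mb and 6.86% of all genes. The edge was set on the cover of these same libraries, so the counts only describe the stretch and carry no test. The filter also let in genes covered in WT replicate 1 only, such as ATP5F1D. The part of this stretch in the CIRBP values was not tested. Whether DNA copy number bears on the cover and fold enrichment of SCAN1#1 here was not tested either, since input samples are not analysed here.

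**Figure D5:**
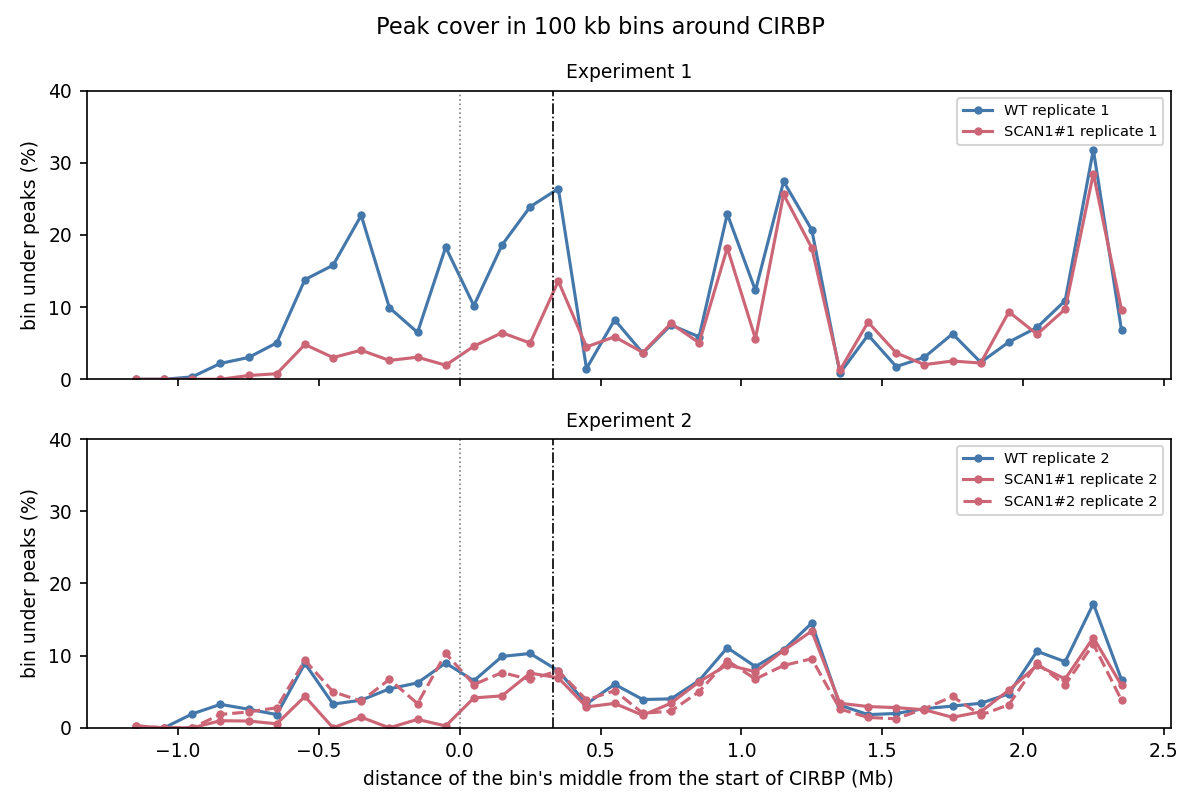
Percent of bases under the 63456 strongest peaks in bins of 100 kb, along the distance of the bin's middle from the start of CIRBP in Mb, for the libraries of experiment 1 (top) and experiment 2 (bottom); the dotted line marks CIRBP and the dash-dotted line the edge at 1.6 Mb of chromosome 19. Left of the edge SCAN1#1 (red, solid) runs below WT (blue) in most bins, with 2.63% and 1.76% over the stretch against 10.2% and 4.57%, and SCAN1#2 (red, dashed; 4.21%) runs near WT.

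Among single neighbours of CIRBP, FAM174C and MIDN differed most. FAM174C begins 650 bases after the end of CIRBP. With its own 1 kb flanks it was covered over 55.5% and 14.0% in WT, 8.55% and 12.7% in SCAN1#1 and 9.93% in SCAN1#2. WT replicate 1 alone stood out. In the other libraries this cover was the last CIRBP peak, which reached into the 1 kb before FAM174C and ended before that gene began. Those values are therefore not separate from the values of CIRBP. MIDN, the gene of midnolin, ends 10.2 kb before CIRBP and was covered over 70.2% and 41.4% in WT, 8.96% and 0% in SCAN1#1 and 55.4% in SCAN1#2. MIDN was low in SCAN1#1 only. Of 8 protein-coding neighbours within 100 kb, 6 had a lower SCAN1 mean, FAM174C among them, 1 a higher one and 1 no cover. The median difference of the 8 was -1.84 points, and 4 passed the cover filter. Among the lower ones, EFNA2 (-0.617 points) and PWWP3A (-1.13) did not pass it. ATP5F1D was lower through WT replicate 1 alone (25.5%, with 0% in the other libraries). A lower SCAN1 mean was not counted over all genes, so nothing is read from the counts of neighbours.

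Of the 6 neighbours of RBM3, 2 had a lower and 4 a higher SCAN1 mean, with a median difference of 0.754 points. Nothing is read from these counts either, for the same reason. FTSJ1, which encodes a tRNA methyltransferase, was covered over 47.3% and 46.4% in WT, 74.5% and 62.2% in SCAN1#1 and 46.5% in SCAN1#2. WDR13, 16.3 kb after RBM3, was covered over 46.7% and 35% in WT, 48.6% and 50.5% in SCAN1#1 and 35.1% in SCAN1#2. For both, as for RBM3, SCAN1#1 was above WT of its experiment, while SCAN1#2 was close to WT replicate 2 for both neighbours and below it for RBM3.

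The genes most like each member were sought by the root mean square difference from its 5 cover values. For CIRBP they were TRIP6 (7 points), OAZ1 (8.43), CENPX (8.94), CCDC137 (9.09) and GADD45B (9.38). TRIP6, which encodes an adhesion and signalling adaptor, came closest, with 80.7% and 84.5% in WT, 53.0% and 46.8% in SCAN1#1 and 71.1% in SCAN1#2. For RBM3 they included H2BC12 (1.20), NTF4 (4.04), GNL1 (4.47) and TMEM184A (4.68), over the same 5 libraries. The histone gene H2BC12 had 58.7% and 49.0% in WT, 76.3% and 57.2% in SCAN1#1 and 38.3% in SCAN1#2. RBM3 thus had a nearer match than CIRBP.

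Other genes of the cold response did not move as one group. In the list of cold-responsive genes and regulators of the pair, 14 of 19 passed the cover filter. All 3 differences within experiments were negative for 2 of them (RTN3 and SRPK1) and positive for 4 (SRSF5, TXN, RPA2 and CSNK2A1), against 15.8% and 19.4% of all 8472 genes. The median difference of the 14 was -0.13 points and that of all genes 0.081. SRSF5, a splicing factor gene, had 15.3% and 15.8% in WT, 35.4% and 25.4% in SCAN1#1 and 34.8% in SCAN1#2, opposite in sign to CIRBP. RTN3, whose translation RBM3 raises, was low throughout, at 5.51% and 6.73% in WT and 2.75% to 4.4% in SCAN1 libraries. TXN, the thioredoxin gene whose messenger RNA CIRBP binds, differed by 8.18 points. PRMT1, which methylates CIRBP, and PLCG1 had the highest mean cover, 56.0% and 38.7%, and differed by -2.07 and -3.27 points between group means. These means hide opposed libraries. PRMT1 had 73.4% and 41.1% in WT, 83.6% and 56.9% in SCAN1#1 and 24.9% in SCAN1#2, the lines on opposite sides of WT as for RBM3. PLCG1 had 33.3% and 48.1% in WT, 52.9% and 39.3% in SCAN1#1 and 20.1% in SCAN1#2.

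Of the cold-shock domain genes, 7 of 8 passed, with YBX1 lower and YBX3 higher in all 3 differences and a median of -0.0789 points. Over all 8472 genes 15.8% were lower and 19.4% higher in all 3 differences. CARHSP1 had the highest mean cover, 59.7%, and a pooled difference of -0.0858 points, while CSDC2 (26.9%) differed by -10.6. By library CARHSP1 had 66.2% and 53.3% in WT, 71.4% and 64.3% in SCAN1#1 and 43.3% in SCAN1#2, again on opposite sides of WT. For CSDC2 the value of WT replicate 1, 57.5%, stood apart from 9.14% in WT replicate 2 and 15.7% to 34.7% in SCAN1. YBX1, a messenger RNA packaging protein gene, differed by -4.87 points. No member of this list lay as far from 0 as CIRBP, but CIRBP was chosen on this contrast, so nothing is read from that.

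Of the genes of related RNA-binding proteins, 14 of 15 passed, with SRSF3 lower and RBMX, HNRNPA2B1, HNRNPDL and SRSF2 higher in all 3 differences, and a median of 1.04 points. That is 1 lower and 4 higher of 14, against 15.8% and 19.4% of all 8472 genes, and nothing is read from these counts. HNRNPA1, a splicing regulator gene, and SRSF2 had the highest mean cover, 76.9% and 70.1%, both above CIRBP, and differed by 2.11 and -0.296 points between group means. HNRNPA2B1 (46.8%) differed by 9.79 points and HNRNPDL by 10.7. By library HNRNPA1 had 62.5% and 88.7% in WT, 81.4% and 81.7% in SCAN1#1 and 70.1% in SCAN1#2. It was thus above WT in experiment 1 and below it in experiment 2, which its group means hide. SRSF2 had 77.6% and 63.0% in WT, 81.7% and 64.9% in SCAN1#1 and 63.4% in SCAN1#2. High cover went with small differences within experiments for SRSF2, unlike CIRBP.

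Of the markers of mesenchymal and osteoblast cells, 4 of 8 passed the filter (VIM, COL1A1, THY1 and SPARC) and 1 had no peak in any list. RUNX2, COL1A2, TWIST1 and CDH2 did not pass. The median difference of those that passed was -17.9 points, but they did not move alike. COL1A1 differed by -37.4 points, THY1 by -28.8, SPARC by -7.01 and VIM by 0.197. COL1A1, a collagen of bone, had 66.7% and 55.8% in WT, 26.4% and 35.9% in SCAN1#1 and 9.09% in SCAN1#2. Of those that passed, COL1A1 and THY1 were lower in all 3 differences within experiments, as were 15.8% of all 8472 genes. The part of such markers in the CIRBP values was not tested. Of 8 markers of other lineages, 0 passed and 7 had no peak. No read depth was used here, and peaks thus carry no counting interval. Peaks are not a measure of expression.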

How the data were processed

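The members, gene lists and alternatives were chosen with earlier results of these data known. Per the submitters' processing notes, the tools, in roles not stated, were MACS3 3.0.0a6, BWA 0.7.17-r1188 and SAMtools 1.9, with deepTools 3.5.1 and FastQC 0.11.5, and the build was hg38. The authors deposited 1 narrowPeak list for each of the 5 DRIP libraries (63456 to 110745 peaks). Per the layout of the deposited files, its columns give a score (10 times the -log10 q), the fold enrichment (a ratio over the caller's background), -log10 p and -log10 q of each peak. The control and the calling options were not stated, and the 5 input samples are not analysed here.

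Genes come from RefSeq on GRCh38.p14, and promoters from its sequence table, which held 15813 of 19974 genes. Covered bases, with 1 kb added at both gene ends, were computed from the 63456 strongest peaks of each library with Python 3.11.15, numpy 2.4.6 and pandas 2.3.3, and checked on simulated peaks. Figures were drawn with matplotlib 3.10.9. The replicate number pairs the samples, since the labels give it as the experiment. Deviations from the genotype means correlated across genes by 0.325 to 0.612 within experiments. The genes named are the members, their neighbours within 100 kb that share a peak or are discussed, the 5 most alike genes per member, and per list the 3 of highest cover and the 2 of largest difference; some genes that this rule picks are not reported here. List members named only for their sign in all 3 differences, RTN3 among them, were picked after their values were seen, as were the edge at 1.6 Mb and the CCGGAA search. The planned protein comparison was not run, since no protein sequence was used here.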

Additional observations from a re-analysis of the deposited data

Results flagged for a closer look

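The cover of RBM3 was drawn for a closer look because the SCAN1 lines lay on opposite sides of WT of the same experiment. SCAN1#1 was higher by 18.8 points in experiment 1 and by 11.5 points in experiment 2, and SCAN1#2 differed by -8.05 points in experiment 2. The difference between the lines was not tested. The sign for SCAN1#2 depended on the joining of peaks: with gaps of up to 1000 bases closed, a setting added after the data were seen, SCAN1#2 was 2.78 points above WT replicate 2.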

How the results depend on the processing

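The lower cover of CIRBP kept its sign under all 14 alternatives and moved by more than the spread between replicates in 1, the windows of 1 kb around both gene ends (-18.7 points). Leaving out 1 library gave -30.7 to -22.8 points for CIRBP and -3.76 to 15.2 for RBM3, whose sign turned without SCAN1#1 replicate 1. With experiment as a replicate block the differences were -26.6 points for CIRBP and 10.3 for RBM3, and on the log2 scale of the highest fold enrichment -0.74 and -0.10. The latter were -0.94 to -0.49 and -0.14 to -0.061 without 1 library. Weighting fold enrichment by covered bases turned the RBM3 value to 0.076 and gave -0.753 for CIRBP. With no filter on cover, 958 genes instead of 581 had all SCAN1 libraries below both WT and 1207 instead of 803 above, since more genes entered. Closing gaps of up to 500 or 1000 bases, added after the data were seen, gave -28.3 and -22.2 points for CIRBP. Read depth is unknown here, so what it limits could not be set.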
